A study of Mus musculus with 5 samples.

Results

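Dazl, Sohlh2, Taf7l, Brdt, Dppa3, Dppa4, Zfp42, Pou5f1, Nanos3 and Stk31 are genes of germ cells and of the early embryo from which germ cells arise, and they were chosen by gene name as a set of germ cell identity and RNA-binding genes. All 10 were in the table of 23997 gene names. RNA from whole cerebral cortex of C57BL/6 mouse embryos at E16 (embryonic day 16) was sequenced in 5 libraries, which the study calls biological replicates. The 2 conditional knockout (cKO) libraries carry the label Uhrf1 -/- and came from embryos in which Emx1-Cre had deleted a floxed part of Uhrf1. The 3 control libraries carry the label Uhrf1 +/-, so that these animals also lacked 1 Uhrf1 allele where Cre was active. Both groups carried Emx1-Cre, which recombines in the progenitors of the dorsal telencephalon and their progeny. Interneurons that enter the cortex from the ventral telencephalon, microglia, vessels and meninges in the same tissue therefore kept their Uhrf1 alleles. Values are FPKM, fragments scaled to transcript length and to the mapped fragments of the library, so levels can be set side by side between genes.

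Germ cell genes are kept silent in somatic tissues, and many of them have promoters rich in CpG dinucleotides whose cytosines are methylated outside the germ line. Uhrf1 binds hemimethylated DNA behind the replication fork and brings in Dnmt1, which copies the methyl marks to the new strand. In primordial germ cells the genome loses most of its methylation, and genes of this class switch on. The comparison asks which of these genes differed in level between cortex with and without Uhrf1 in the Emx1 lineage. Methylation was not analysed here.

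The promoters of the genes are shown first, because their CpG content differed widely. RefSeq promoter windows of GRCm38.p6, which span 250 bases before to 50 bases after the annotated start, were matched by symbol for 8 of the 10 genes, in 10 windows. The following 4 windows were chosen to show the gene that rose (Sohlh2 at chr3:55181794-55182093, plus strand), a CpG-rich promoter of a gene that did not pass the test (Dazl at chr17:50293571-50293870, minus strand), an X-linked gene whose window holds an E-box (Taf7l at chrX:134476441-134476740, minus strand) and a CpG-poor promoter (Nanos3 at chr8:84176503-84176802, minus strand). Each is written 5′ to 3′ with every CpG dinucleotide in capitals.
Sohlh2: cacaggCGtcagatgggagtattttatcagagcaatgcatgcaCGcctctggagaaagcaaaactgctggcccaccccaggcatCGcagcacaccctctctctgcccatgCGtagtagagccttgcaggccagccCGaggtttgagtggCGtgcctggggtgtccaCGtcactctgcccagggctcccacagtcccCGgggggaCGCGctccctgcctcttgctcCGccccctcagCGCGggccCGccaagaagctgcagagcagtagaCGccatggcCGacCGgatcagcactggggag
Dazl: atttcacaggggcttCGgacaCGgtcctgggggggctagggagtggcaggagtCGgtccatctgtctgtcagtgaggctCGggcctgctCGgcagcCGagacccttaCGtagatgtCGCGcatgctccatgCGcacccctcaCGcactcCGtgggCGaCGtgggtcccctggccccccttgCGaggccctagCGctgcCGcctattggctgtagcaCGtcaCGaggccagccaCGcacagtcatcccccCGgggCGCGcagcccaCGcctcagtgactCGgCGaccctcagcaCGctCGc
Taf7l: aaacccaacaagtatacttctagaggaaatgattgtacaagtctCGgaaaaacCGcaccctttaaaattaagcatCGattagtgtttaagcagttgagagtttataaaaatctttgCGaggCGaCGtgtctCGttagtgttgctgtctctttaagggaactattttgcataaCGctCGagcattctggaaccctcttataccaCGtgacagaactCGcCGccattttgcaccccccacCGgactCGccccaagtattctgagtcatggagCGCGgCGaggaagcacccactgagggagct
Nanos3: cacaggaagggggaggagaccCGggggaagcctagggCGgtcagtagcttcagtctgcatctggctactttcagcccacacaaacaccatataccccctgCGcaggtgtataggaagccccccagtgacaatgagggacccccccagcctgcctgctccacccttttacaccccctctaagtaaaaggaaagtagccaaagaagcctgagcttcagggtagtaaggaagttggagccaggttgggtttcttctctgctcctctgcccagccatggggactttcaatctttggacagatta

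The Sohlh2 window held 17 CpG with an observed to expected ratio of 0.54. The Dazl window held 28 with a ratio of 0.80, the Taf7l window 17 with a ratio of 1.03 and the Nanos3 window 3 with a ratio of 0.13. Across all 32851 windows of the same length the median was 7 CpG, with quartiles of 3 and 20, and the median ratio was 0.38. Sohlh2 had more CpG than 68.6% of windows and Dazl more than 85.8%, while Nanos3 had more than 23.3%. Brdt had 23 CpG, the Stk31 windows 28 and 29, Zfp42 had 11, and the Pou5f1 windows 11 and 6. The gene that rose was therefore not the most CpG-rich of the set.

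**Figure D1:**
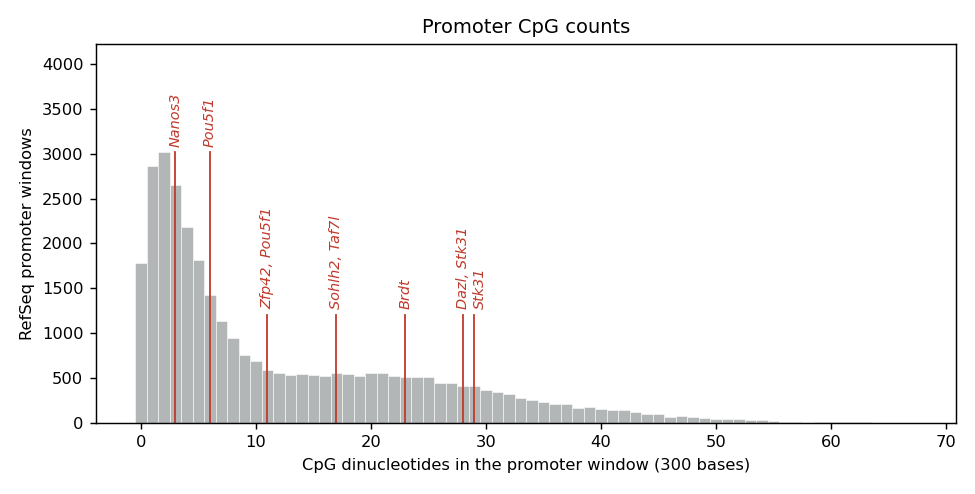
Number of CpG dinucleotides (horizontal axis) in the 32851 RefSeq promoter windows of 300 bases (grey bars, number of windows on the vertical axis), with the windows of the germ cell genes marked by red lines of arbitrary height. Nanos3 lies at 3 CpG, Sohlh2 and Taf7l at 17, and Dazl and Stk31 at 28 and 29.

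Both strands of each window were searched for the E-box CACGTG, a site of basic helix-loop-helix factors, and for the E2F core GGCGGGA. The E-box was found in 4 windows of 3 genes (Taf7l, Brdt and both Stk31 windows), and in 7.15% of all windows. The Stk31 windows overlap and hold the same site, which is thus counted in each. The E2F core was found in 0 of the 10 windows, and in 11.34% of all windows. The Sohlh2, Dazl and Nanos3 windows held neither. A match is a run of letters and was not tested as a binding site.

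Uhrf1, the deleted gene, had 2.75 and 2.61 FPKM in the cKO libraries, against 7.24, 13.2 and 13.0 FPKM in the control libraries, with a log2 fold change of -1.97 ± 0.28 (SE, limma, adjusted p = 0.00763). Every cKO value was below every control value, and RNA remained in the cKO tissue. Ddx3y, on the Y chromosome, had 13.3 and 0 FPKM in cKO against 19.4, 0.0141 and 21.8 FPKM in control, and Xist, expressed from the inactive X chromosome of females, had 3.84 and 96.3 FPKM against 0.0252, 66.6 and 0.0812 FPKM. By Ddx3y both sexes were thus present in each group, which bears on X-linked Taf7l. However, cKO replicate 1 had Ddx3y together with more Xist than the controls with Ddx3y, so its sex is not clear from these genes. Depth, read roughly from the step size of low FPKM values, was about 8300000 and 10200000 fragments in cKO and 38200000, 16600000 and 10600000 in control, with cKO replicate 2 and control replicate 3 too close to order. Cortex markers summed to 793 and 813 FPKM in cKO and 922, 946 and 1251 FPKM in control. Markers of cells outside the Emx1 lineage had higher sums in both cKO libraries than in any control for 3 lists. The summed level of 6 ventral telencephalon genes was 90.1 and 71.3 FPKM in cKO and 54.4 to 60.3 FPKM in control, of 4 microglia genes 20.9 and 19.1 against 11.8 to 14.8 FPKM, and of 4 meninges genes 9.03 and 8.18 against 2.84 to 4.36 FPKM. Gene by gene, both cKO libraries were above all controls for 4 of the ventral telencephalon genes, 3 of the microglia genes and 0 of the meninges genes. The meninges sums came from different genes: Dcn had 6.90 and 0.997 FPKM in cKO, and Col1a1 0.663 and 3.19 FPKM. The sum of the 5 blood genes went the other way, with 503 and 440 FPKM in cKO and 581 to 916 FPKM in control. Within that list Hba-a1 was higher (log2 fold change 4.55) and Hba-a2 lower (-4.75), both at unadjusted p under 0.05 (limma) and over 2-fold. Both varied widely within a group, as Hba-a1 did with 34.5 and 1.29 FPKM in cKO and Hba-a2 with 93.5, 0.0916 and 1.30 FPKM in control. The sums of the 3 endothelium genes overlapped between the groups, with 82.9 and 75.5 against 66.0 to 99.3 FPKM. Of the 14 genes of the ventral telencephalon, microglia and meninges lists, Col1a1 of the meninges list alone passed p under 0.05 and over 2-fold. The part of cell composition in the results that follow was not tested, and in bulk tissue fewer cells of a type and less RNA per cell cannot be told apart. Of the 6 defining germ cell markers, Prm1, Prm2 and Tnp1 were listed at 0 in all 5 libraries, Zp3 was above 0 only in control replicate 3, at 0.176 FPKM, and all 6, Ddx4 and Dnd1 included, summed to 1.74 and 1.07 FPKM in cKO against 1.57, 0.683 and 1.10 FPKM in control.

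Of the 10 genes, Sohlh2 alone rose in the cKO cortex. Nanos3, Brdt and Dazl were detected at low levels in both groups and did not pass the test, and Stk31, Taf7l, Dppa4, Pou5f1, Dppa3 and Zfp42 were at or near 0. The test took genes that averaged 0.1 FPKM or more across all 5 libraries, which left 4 of the 10 and 14695 genes in all. By the thresholds of the study's methods, over 2-fold at an unadjusted p under 0.05, 1 of the 4 was higher and 0 were lower, and among all genes tested 2.88% were higher and 1.16% lower. Sohlh2 was also the 1 gene of the 4 at an adjusted p under 0.05 (1.1% of all genes tested), and the 1 derepressed gene by the study's bound, with a mean below 0.1 FPKM in control and above it in cKO (1.14%). Both cKO libraries were above all controls for 1 of the 4 (14.5% of all genes) and below all controls for 0 (16.3%). Since Sohlh2 reached the test only through its cKO values, these counts are a description of 4 genes.

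Sohlh2 is a basic helix-loop-helix transcription factor of spermatogonia and of oocytes in primordial follicles, where it works with Sohlh1 in early germ cell differentiation. It lies on chr3:55182044-55209957 (plus strand, 11 exons). It had 3.26 and 2.64 FPKM in the cKO libraries, against 0, 0 and 0 FPKM in the control libraries, a mean of 2.95 ± 0.43 FPKM in cKO (SD, n = 2). The groups did not overlap, and both cKO libraries were near each other. In limma's fit with Benjamini-Hochberg adjustment over all genes the adjusted p was 1.92e-04. With all 3 controls at 0 and the filter passed through the cKO values alone, this p takes its spread from the cKO libraries and from other genes, and it is given as a description. The exact two-sided permutation test over libraries gave p = 0.1, the smallest that 2 against 3 libraries allow. No fold change is given, because the gene is listed at 0 in control. Its single annotated transcript of 2364 bases corresponds to about 58.5 and 58.3 fragments in the cKO libraries by the rough depths above, whereas 1 fragment would have been worth 0.0121, 0.0278 and 0.0436 FPKM in the controls. A fit without cKO replicate 1 or cKO replicate 2 has no spread of Sohlh2 left, since the controls are all at 0. Its p would come from other genes alone, so such fits do not test whether the rise depends on 1 library.

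Silence in control was common, and switching on was not. With the 1237 small RNA names left out, 6025 genes were listed at 0 in every control library, and 5451 of them (90.5%) were also at 0 in both cKO libraries. Another 424 were above 0 in 1 cKO library, and 150 (2.49%) in both. Only 21 reached at least 1 FPKM in both cKO libraries, and Sohlh2 was 15th of the 6025 by its cKO mean. Among the 10 germ cell genes, 4 were at 0 in all controls: Sohlh2, which was above 0 in both cKO libraries, Dppa4, which was above 0 in 1, and Dppa3 and Zfp42, which were at 0 in all 5 libraries.

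**Figure D2:**
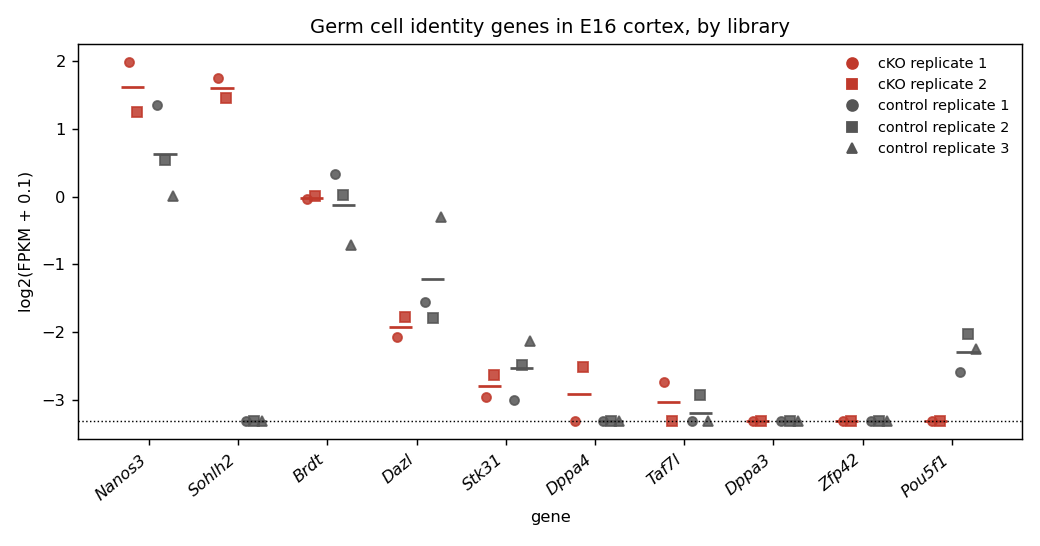
Level of each of the 10 genes in each library, as log2(FPKM + 0.1), with cKO (red) left of control (grey). Symbols mark replicates, short lines the group means, and the dotted line a value of 0 FPKM. Sohlh2 stands at 3.26 and 2.64 FPKM in cKO with all 3 controls on the dotted line, whereas the 2 groups overlap for Nanos3, Brdt and Dazl.

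Nanos3, Brdt and Dazl were the other genes above the filter. Nanos3 is an RNA-binding zinc-finger protein that keeps primordial germ cells alive while they migrate. It lies on chr8:84173733-84176552 (minus strand, 2 exons) and had 3.86 and 2.27 FPKM in cKO, against 2.44, 1.35 and 0.910 FPKM in control. The groups overlapped, since control replicate 1 was above cKO replicate 2. The log2 fold change of 0.98 ± 0.41 (SE, 95% interval 0.07 to 1.90) was just under 2-fold, with an unadjusted p of 0.0382 and an adjusted p of 0.403 (limma). The exact permutation test gave p = 0.3. Without control replicate 1 the log2 fold change was 1.34, past both thresholds of the study, with an adjusted p of 0.255. It was 0.61 (limma, unadjusted p = 0.324) without cKO replicate 1, 0.67 (unadjusted p = 0.116) without control replicate 3 and 0.84 (unadjusted p = 0.0664) with quantile normalization.

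Nanos3 had the highest mean of the 10 genes in cKO and in control. GENCODE annotates, besides the coding Nanos3 transcripts, a noncoding transcript of the gene on chr8:84173731-84185217, with 434 bases in 2 exons. Its span includes Mir181d at chr8:84178716-84178787 and Mir181c at chr8:84178873-84178961, microRNA genes that are expressed in brain. FPKM values per gene do not separate these transcripts.

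Brdt, the testis member of the bromodomain and extraterminal family that reads acetylated histones during spermatogenesis, lies on chr5:107331116-107387061 (plus strand, 19 exons). It had 0.873 and 0.907 FPKM in cKO, against 1.15, 0.917 and 0.507 FPKM in control, so both cKO values lay within the control range. The log2 fold change was 0.11 ± 0.38 (SE, 95% interval -0.75 to 0.96, limma, adjusted p = 0.929). In this fit the interval lies inside the 2-fold bounds in both directions. With no filter on low values its upper end was 1.01, just past the bound.

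Dazl, an RNA-binding protein that governs translation in germ cells from their arrival in the gonad, lies on chr17:50279393-50293620 (minus strand, 11 exons). It had 0.136 and 0.192 FPKM in cKO, against 0.241, 0.189 and 0.710 FPKM in control. Control replicate 3 was the highest library, and control replicate 2 lay between the cKO libraries. The log2 fold change was -0.71 ± 0.53 (SE, 95% interval -1.91 to 0.48, limma, adjusted p = 0.628). These values stand for about 3.1 and 5.4 fragments in cKO and 25.6, 8.7 and 20.9 in control. Without control replicate 3 the log2 fold change was -0.26 (limma, adjusted p = 0.856).

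The remaining genes had means below 0.1 FPKM and were left out of the test. Pou5f1 (Oct4), the transcription factor that holds pluripotency and is needed by primordial germ cells, had 0 and 0 FPKM in cKO, against 0.0656, 0.144 and 0.110 FPKM in control. The control values stand for about 2.9, 2.8 and 1.4 fragments, while 1 fragment would have been worth 0.104 and 0.0844 FPKM in cKO. The difference is thus at the level of single fragments, and with no filter its adjusted p was 0.280 (limma). Pou5f1 also has many processed pseudogenes, and the authors removed reads that map to more than 1 place, which makes its level uncertain. Stk31, a testis protein with a Tudor and a kinase domain, had 0.0289 and 0.0616 FPKM in cKO, against 0.0248, 0.0787 and 0.129 FPKM in control, and the groups overlapped. Taf7l, the germ cell paralog of the general transcription factor subunit Taf7, had 0.0492 and 0 FPKM in cKO, against 0, 0.0316 and 0 FPKM in control, about 1 fragment in each library above 0.

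Dppa4, a DNA-binding protein of pluripotent cells that acts with Dppa2, had 0 and 0.0738 FPKM in cKO, against 0, 0 and 0 FPKM in control, about 1 fragment in all. Dppa3 (Stella), which keeps Uhrf1 away from chromatin in oocytes, was listed at 0 FPKM in both cKO and all 3 control libraries. Zfp42 (Rex1), a zinc-finger gene used to mark naive pluripotent cells, was likewise at 0 in every library. Dppa3 has processed pseudogenes too, and its 0 carries the same limit as the level of Pou5f1. By level, the order in cKO was Nanos3, Sohlh2, Brdt and Dazl, with Nanos3 and Sohlh2 within each other's spread. In control it was Nanos3, Brdt and Dazl, and neighbours in that order overlapped.

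Further germ cell and pluripotency genes were counted from 2 lists. Of 24 pluripotency and primordial germ cell genes, 8 were tested, 1 was higher, 0 were lower and 8 were at 0 in every library. The higher gene, Tex19.1, which restrains retrotransposons in germ cells and placenta and was named after its values were seen, had 1.70 and 0.754 FPKM in cKO against 0, 0 and 0 FPKM in control (limma, adjusted p = 0.0062). Like Sohlh2, it passed the filter through its cKO values alone, and its p is a description. Sox2, a factor of pluripotent cells that neural progenitors also use, and Kit, the receptor that migrating germ cells need, were the most abundant of the list. Sox2 had 44.4 and 42.3 FPKM in cKO against 42.4, 42.0 and 41.1 FPKM in control. Kit had 6.41 and 5.77 FPKM against 7.64, 10.9 and 6.80 FPKM, with a log2 fold change of -0.44 that did not pass (limma, adjusted p = 0.505).

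Of 26 gonadal germ cell and RNA-binding genes, 15 were tested, 2 were higher, 0 were lower and 6 were at 0 in every library. Tdrd9, a Tudor domain helicase of the piRNA pathway, had 0.314 and 0.520 FPKM in cKO against 0.0429, 0.0405 and 0.0604 FPKM in control. Its log2 fold change of 1.78 ± 0.47 (SE) passed the unadjusted threshold and not the adjusted one (limma, adjusted p = 0.167). Adad2, a double-stranded RNA-binding protein of male germ cells, had 0.773 and 0.299 FPKM in cKO against 0.151, 0 and 0.0682 FPKM in control, with a log2 fold change of 1.87 ± 0.57 (SE, limma, adjusted p = 0.244). For both genes the cKO libraries were above all controls, at levels under 1 FPKM. Over both lists 3 of 23 tested genes were higher, beside 2.88% of all genes tested, and the median log2 fold change of the 23 was 0.19, beside -0.018 over all genes tested. All 3 had control means under 0.1 FPKM and passed the filter only through their cKO values, so the count and the median describe the tested genes and not the lists. With a pseudocount of 1 FPKM 1 gene of the lists was called, and with a mean of at least 1 FPKM required 0 were.

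**Figure D3:**
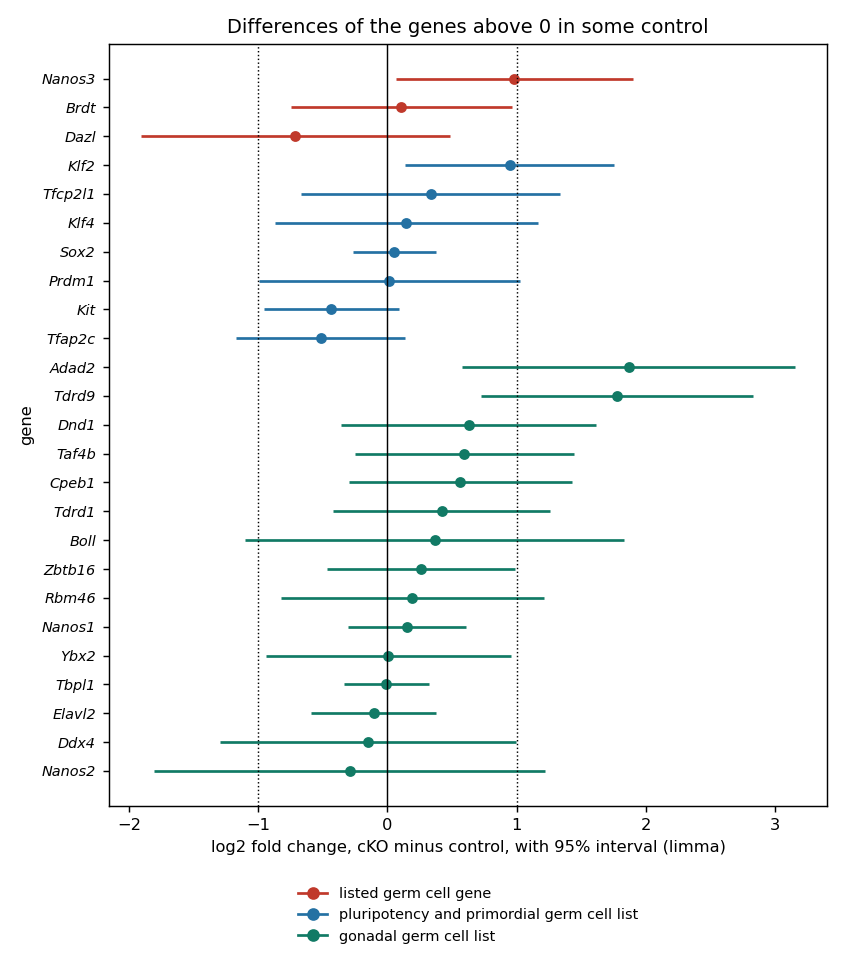
Log2 fold change, cKO minus control (points), with 95% intervals from limma (lines), for the tested genes above 0 in at least 1 control. Red marks Nanos3, Brdt and Dazl, blue the pluripotency and primordial germ cell list and green the gonadal germ cell list, and dotted lines mark 2-fold. Adad2 and Tdrd9 lie beyond 2-fold at 1.87 and 1.78, and most other intervals span 0.

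Somatic relatives of the germ cell genes, which are expressed in all cells, gave a scale for these levels. Brd2, a ubiquitous relative of Brdt, had 55.9 and 48.0 FPKM in cKO against 52.6, 51.7 and 46.2 FPKM in control. Taf7, the relative of Taf7l, had 16.7 and 14.9 FPKM against 19.1, 17.1 and 25.6 FPKM, with a log2 fold change of -0.37 (limma, adjusted p = 0.512). Brd3, Yy1 (from which Zfp42 derives), Dazap1 (a Dazl partner) and Pum2 had log2 fold changes of 0.24, 0.13, -0.15 and -0.14. None of the 6 passed, and their median was -0.04.

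Genes that lie next to the 10 on the chromosome, a comparison chosen after the members' values were seen, showed no called change. The nearest protein-coding gene on each side gave 20 neighbours, of which 13 were tested and 0 passed, with log2 fold changes of -0.29 to 0.60. Among all genes tested 2.88% were higher and 1.16% lower, so with 13 genes a count of 0 does not set the neighbours apart. Sohlh2 stands between Ccdc169, 6.8 kb away, and Dclk1, 32.3 kb away. Ccdc169 had 0.143 and 0.146 FPKM in cKO against 0.0813, 0 and 0.132 FPKM in control (limma, adjusted p = 0.692). Dclk1, a microtubule-associated kinase of young neurons, had 85.8 and 93.5 FPKM in cKO against 70.9, 77.1 and 60.9 FPKM in control. Its log2 fold change was 0.37, with an unadjusted p of 0.0489 and an adjusted p of 0.430 (limma). For Ccdc169 and Dclk1 alike both cKO libraries were above all controls, as for 14.5% of all genes tested. Nanog, the pluripotency factor 77.2 kb from Dppa3, had 0 and 0 FPKM in cKO against 0.0648, 0.0343 and 0.214 FPKM in control. It was below the level at which genes were tested, and values this low stand for few fragments.

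**Figure D4:**
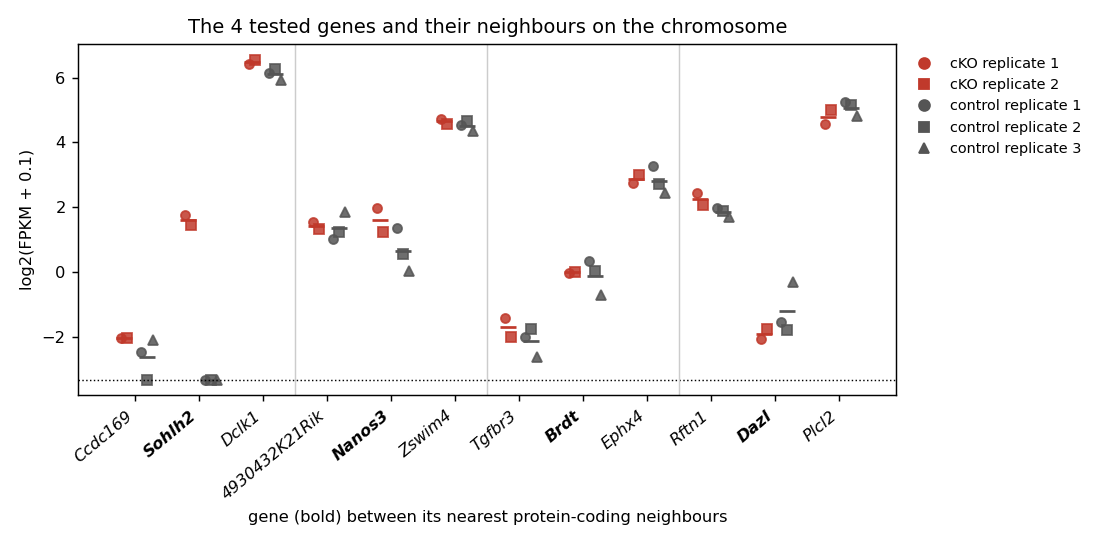
Level of Sohlh2, Nanos3, Brdt and Dazl (bold) and of the nearest protein-coding gene on either side, as log2(FPKM + 0.1) in each library, with cKO (red) left of control (grey). Symbols mark replicates, short lines group means and the dotted line 0 FPKM. Sohlh2 is the one gene whose controls all lie at 0, and Dclk1 beside it stands at 85.8 and 93.5 FPKM in cKO and 60.9 to 77.1 FPKM in control.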

How the data were processed

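The authors sequenced strand-specific libraries of total RNA from E16 cortex and used TopHat2 to align read pairs to mm10. Duplicates and reads mapping to several places were then removed, and the authors computed the deposited FPKM per gene with Cuffdiff (versions not given in the sources used here). Whether counting used strand is not stated. The study tested with Cuffdiff, which needs the reads. Here log2(FPKM + 0.1) was fitted with limma 3.58.1 (eBayes with trend, R 4.3.3) for genes averaging 0.1 FPKM or more, without 1237 small RNA names, as cKO minus control over 2 cKO and 3 control libraries, with Benjamini-Hochberg adjustment. The fit was also run on simulated data, in which changes were given only to genes of higher mean log level than Sohlh2, Brdt or Dazl. That run does not bear on genes as low as these. The limma p-values rest on the spread between these samples, moderated toward that of other genes of similar level.

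The table holds no counts. Depth was estimated from whole-number steps of low values in 1440 single-transcript genes. Per library, 109 to 162 of these genes had values low enough to use. Between 59.9% and 79.8% of the values used fell within 0.25 of a whole number, so fragment numbers are rough. The depth with the strongest steps was taken, so these shares are no independent check of it. The shares were lowest in cKO replicate 1 (59.9%) and control replicate 1 (64.9%), where the fragment numbers are least certain. Coordinates are those of RefSeq on GRCm38.p6 and, for Nanos3 transcripts, GENCODE. Gene names were matched to RefSeq for 22500 symbols and 1360 synonyms.

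The genes and lists were chosen with earlier results of these data known. Named were the 10 genes, Uhrf1, Ddx3y, Xist, the somatic relatives, and from each list up to 4 genes with the smallest p past both thresholds, or the 2 most abundant where fewer than 2 passed. Not every marker gene so named is printed, and somatic relatives other than the 6 printed are not reported here. Neighbours, fragment estimates and Tex19.1 were chosen after values were seen. Alternatives varied the pseudocount, filter, scaling and libraries. The figures were drawn with matplotlib 3.10.9.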

Additional observations from a re-analysis of the deposited data

How the results depend on the processing

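Over the alternatives with both cKO libraries, the adjusted p of Sohlh2 (limma) was lowest at 7.7e-05 with a pseudocount of 1 FPKM. It was highest at 0.0036 with a pseudocount of 0.01 FPKM, as a description of a gene with all controls at 0. In fits without 1 cKO library the lone one is assumed to vary like the others, and for Sohlh2 no spread of its own is left. Nanos3 joined it past p under 0.05 and over 2-fold, giving 2 higher genes, with a pseudocount of 0.01 FPKM, with median ratio scaling and without control replicate 1, and leaving out 1 library at a time gave 1 to 2. The cKO libraries left lay above all controls left for 1 to 2 genes when 1 library was left out. The count was 2 without control replicate 1, and 2 without cKO replicate 2, where it rests on cKO replicate 1 alone. Brdt changed sign, to -0.10 with quantile normalization and -0.19 without control replicate 3, ran from -0.19 to 0.33 with 1 library left out, and was not called in any of these. With no filter 8 genes were tested and 1, Pou5f1, was lower. With a mean of at least 1 FPKM 2 genes were tested. Of the pathway genes, 3 were called, against 1 with a pseudocount of 1 FPKM and 0 with a mean of at least 1 FPKM, where fewer low genes remain. Over all genes, 423 were higher and 171 lower, against 318 and 284 with quantile normalization, 154 and 24 with a pseudocount of 1 FPKM, 172 and 63 for genes averaging 1 FPKM or more, and 426 and 313 without cKO replicate 1. Genes higher at an adjusted p under 0.05 numbered 161, against 34 without cKO replicate 1 and 45 without cKO replicate 2. No paired analysis was possible because the labels give the groups no shared replicate numbers. Stk31, Taf7l, Dppa4 and Pou5f1 rest on a few fragments each.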

Other observations

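Of the 50 genes on the lists of pluripotency and gonadal germ cell genes, 19 were listed at 0 in all controls, and 14 of these were also at 0 in both cKO libraries. Tex19.1 and Ctcfl were above 0 in both cKO libraries. Ctcfl (Boris), the testis paralog of the insulator protein Ctcf, had 0.0400 and 0.0300 FPKM in cKO against 0, 0 and 0 FPKM in control, and was below the level at which genes were tested. Gdf3, Gtsf1 and Mael were above 0 in 1 cKO library. These genes were named after their values were seen.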
